A study of Mus musculus with 30 samples.

Results

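Adipose tissue macrophages (ATMs) from obese, leukemia-prone mice given a neutralizing antibody to IL-17A were compared with ATMs from mice given vehicle, across all 17059 genes in the ATM count table. The comparison used 6 of the 30 libraries in the series, 3 for each treatment, chosen by their treatment and tissue labels. The antibody libraries had far lower counts of interferon-stimulated, neutrophil and IL-17-induced genes, and higher counts of macrophage, lipid-handling, MHC class II and cell-division genes.

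Recipients in both groups were leptin-deficient Ob/Ob mice. The labels give ages of about 12 to 14 weeks, while the study's methods give a younger range at irradiation. They were lethally irradiated with 700 cGy and then 400 cGy, and received bone marrow (BM) cells from CD45.2+ Shp2E76K/+;LysM-Cre+ donors mixed with an equal number of cells from CD45.1+ Boy/J competitors. LysM-Cre acts in myeloid cells, so the mutation is carried by donor myeloid cells, and the sequenced ATMs could come from the mutant donor, the competitor or the recipient. Treatment began 8 weeks after transplantation and lasted 30 days, with vehicle or with 200 μg of antibody per mouse 3 times a week. F4/80+ cells were sorted from visceral fat. The other ATM groups serve here only as reference levels: WT recipients, Ob/Ob recipients given the GLP-1R agonist beinaglutide at 3 mg/kg, and Ob/Ob recipients given both agents (Combo).

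IL-17A is a cytokine made mainly by Th17 and other lymphoid cells. It binds a receptor of IL-17RA and IL-17RC, which through the adaptor Act1 and NF-kB switches on neutrophil-attracting chemokines, acute-phase proteins and antimicrobial proteins. In obese fat, macrophages accumulate around dying adipocytes and can take on a lipid-handling state marked by TREM2.

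Some properties of the libraries bear on every result. Libraries of a group were close to each other at high counts, while at low counts ATM libraries were further apart than BM libraries. The common coefficient of variation beyond counting noise in the edgeR fits was 32.5% for ATM and 3.51% for BM libraries. In ATM groups the median coefficient of variation between 3 libraries was 40.5% to 60.7% for genes with a mean of 10 to 100 counts and 2.78% to 3.63% for genes with 10000 to 100000 counts. In BM it was 18.4% to 21.2% at 10 to 100 counts and 1.18% to 3.7% at 10000 to 100000 counts. Between pairs of Vehicle or antibody ATM libraries the squared differences were 16.6 to 23.3 times counting noise for genes with 20 to 200 counts in the pair and 20.7 to 26.7 times for genes with 2000 to 20000, so the excess was nearly the same multiple over that range. Above 20000 counts it was 24.7 to 48.6 times. The labels describe 3 mice per group. Whether the libraries of a group came from separate mice or from shared material was not tested, and the p-values below measure only the spread between these libraries, which may be technical.

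**Figure D1:**
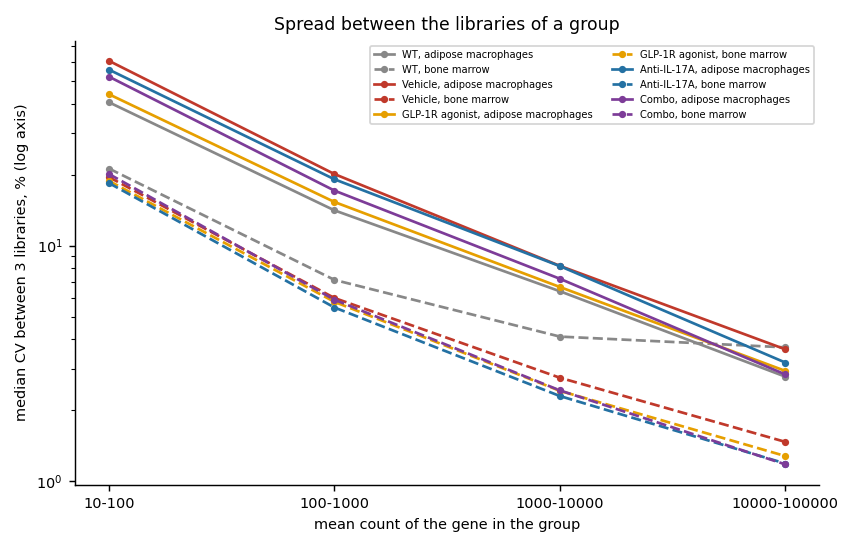
Median coefficient of variation between the 3 libraries of each group (y axis, percent, log axis) for genes in 4 ranges of mean count (x axis). Solid lines are adipose macrophage groups and dashed lines bone marrow groups. The spread falls as counts rise, to between 2.78% and 3.63% in the macrophage groups.

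Sex-linked transcripts separated the groups, although the labels state that groups were matched for sex. Xist, the RNA that silences an X chromosome in female cells, was at 24.7 to 37.6 CPM (counts scaled to a library total of 1e6, here by plain library size) in Vehicle ATMs and 0 to 1.28 in antibody ATMs. The Y-linked genes Ddx3y, Eif2s3y, Uty and Kdm5d summed to 18 to 23.9 CPM in Vehicle and 166 to 175 in antibody libraries. In BM, Xist was at 169 to 180 CPM in Vehicle and 2.66 to 3.42 in antibody libraries, but Vehicle also carried the Y-linked genes, at 60.6 to 62 CPM against 142 to 144 with antibody. WT and agonist ATMs resembled the antibody libraries, at most 0.873 CPM of Xist, and Combo ATMs resembled Vehicle, at 34.5 to 41.8. Sex and treatment cannot be told apart in the comparison of antibody with Vehicle.

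Markers of the labelled cell type differed between the groups. Adgre1, which encodes the F4/80 antigen used for the sort, was at 30.2, 52.4 and 44.3 CPM in Vehicle and 894, 866 and 864 CPM in antibody libraries (CPM from here on is scaled by TMM). Summed over 12 macrophage markers the level was 3589 to 3796 CPM in Vehicle and 16862 to 17057 in antibody libraries, with WT libraries near Vehicle at 4991 to 5268. Of these 12 markers 9 were called higher with antibody and 2, Fcgr1 and Cd14, lower. The 9 neutrophil markers summed to 21568 to 22845 CPM in Vehicle and 420 to 438 in antibody libraries, and each was called lower. Fibroblast and preadipocyte markers were higher with antibody (10805 to 11663 against 24212 to 24794 CPM), as were T cell markers (128 to 153 against 525 to 533). Endothelial markers (3966 to 4103 against 940 to 986) and erythroid markers (6710 to 6804 against 1154 to 1179) were lower in sum. Of 9 endothelial markers, 4 were called lower and 5 were not called. The erythroid sum covers 4 of 8 listed markers, all called lower, because the hemoglobin genes were absent from the counts. In bulk RNA, fewer cells of a type and less RNA per cell cannot be told apart, and the part of these shifts in the results below was not tested.

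**Figure D2:**
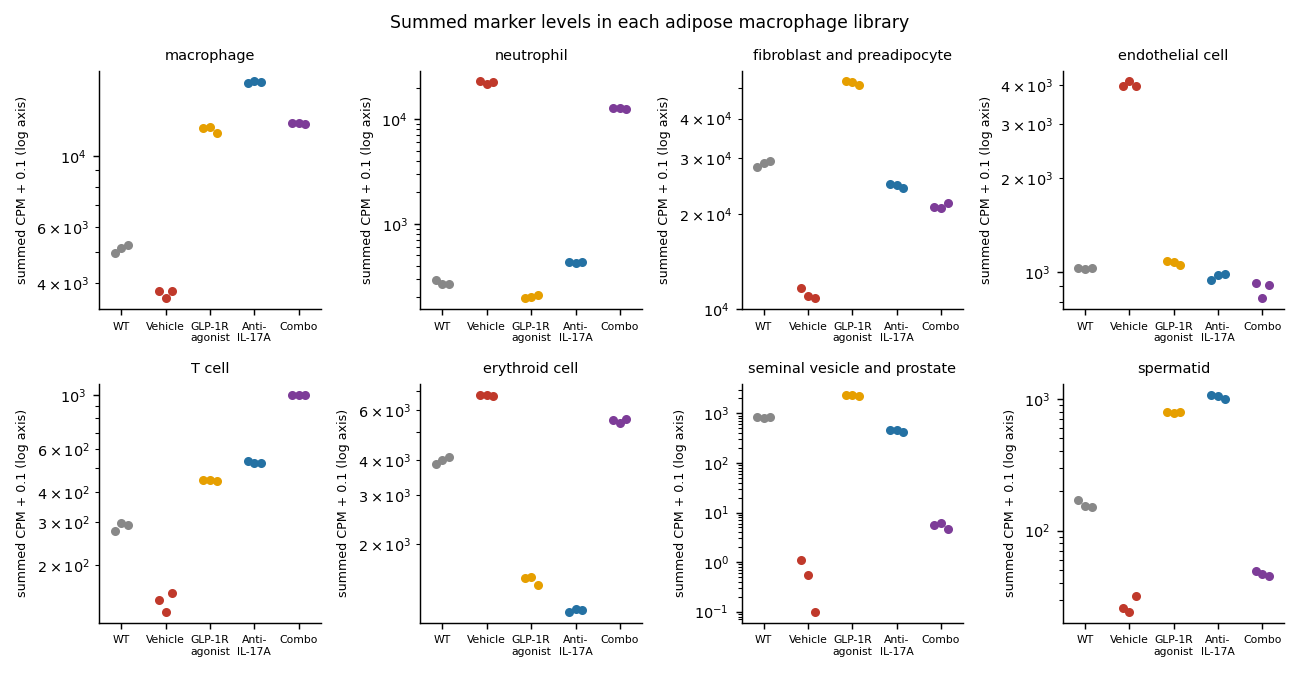
Summed level of 8 marker lists in each of the 15 adipose macrophage libraries (y axis, CPM plus 0.1, log axis; 1 point per library, groups along the x axis). Vehicle libraries are lowest for macrophage markers, at 3589 to 3796 CPM, and highest for neutrophil markers, at 21568 to 22845 CPM.

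A gene was called when its edgeR quasi-likelihood adjusted p was below 0.05 and its fold change exceeded 2. Of 17059 genes, 3821 were called higher with antibody (22.4%) and 2230 lower (13.1%), 35.5% in all. Counts of called list members below are to be read beside these shares. Replicates of the groups did not overlap for 61.5% of genes (35.1% higher with antibody and 26.5% lower). In 1248 of the higher genes every Vehicle library had at most 3 counts, and in 107 of the lower genes every antibody library did. The median log2 fold change over all genes was 0.17, and scaling by library size alone, without TMM, moved it to 0.52 and the share of called genes that were higher from 63.1% to 76%. Small changes near this shift therefore depend on the scaling. Among the 12064 genes with at least 10 counts in every library, 1906 were called higher and 1818 lower.

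All 22 listed type I interferon-stimulated genes were called lower with antibody, with a median log2 fold change of -5.41, against 13.1% of all genes called lower. Ifit3 stood at 2564, 2501 and 2453 CPM in Vehicle and 19.3, 24.3 and 21.8 CPM in antibody libraries. Its log2 fold change was -6.85 ± 0.09 (SE, n = 3 per group, edgeR adjusted p = 1.43e-17). Isg15, a ubiquitin-like antiviral protein, went from 2011, 1964 and 2127 CPM to 41.6, 39.2 and 37.5 CPM. Irf7, the transcription factor that amplifies the interferon response, had a log2 fold change of -6.37 ± 0.08. No library of either group overlapped the other for any of the 22 genes, beside 26.5% of all genes that did not overlap and were lower. Summed, the list was at 31224 to 31927 CPM in Vehicle and 837 to 864 in antibody libraries. The other ATM groups were also low, at 1463 to 1547 CPM in WT, 1253 to 1304 with agonist and 1434 to 1483 in Combo.

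The promoters of 3 of these genes and of Cxcl1, an IL-17-induced chemokine, are shown because the letters recognised by interferon-activated and NF-kB factors can be read in them. Each runs from 250 bases before to 50 after the gene start, from RefSeq on GRCm38.p6, read 5′ to 3′ on the gene's strand. Capitals mark GAAANNGAAA in the first 3 and GGGANNTTCC in Cxcl1, searched on both strands, and overlapping matches run together.
Isg15 (chr4:156200769-156201068, minus strand): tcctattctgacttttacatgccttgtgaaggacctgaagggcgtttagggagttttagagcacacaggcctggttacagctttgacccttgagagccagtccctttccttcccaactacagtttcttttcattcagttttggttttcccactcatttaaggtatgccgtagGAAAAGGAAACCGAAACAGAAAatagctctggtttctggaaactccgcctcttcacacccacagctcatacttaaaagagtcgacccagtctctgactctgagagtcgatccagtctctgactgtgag
Ifit3 (chr19:34583279-34583578, plus strand): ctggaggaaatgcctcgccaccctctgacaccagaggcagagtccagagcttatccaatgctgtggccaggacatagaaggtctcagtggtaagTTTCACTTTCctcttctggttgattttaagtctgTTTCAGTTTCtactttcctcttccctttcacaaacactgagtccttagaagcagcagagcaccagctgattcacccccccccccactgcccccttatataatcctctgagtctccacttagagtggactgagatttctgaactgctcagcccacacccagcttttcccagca
Rsad2 (chr12:26456403-26456702, minus strand): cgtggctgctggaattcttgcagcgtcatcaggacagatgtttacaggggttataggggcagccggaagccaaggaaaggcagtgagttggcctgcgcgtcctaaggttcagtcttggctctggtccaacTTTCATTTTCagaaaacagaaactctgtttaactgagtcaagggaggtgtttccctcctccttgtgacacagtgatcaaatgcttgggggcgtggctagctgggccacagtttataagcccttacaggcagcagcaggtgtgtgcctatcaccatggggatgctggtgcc
Cxcl1 (chr5:90890995-90891294, plus strand): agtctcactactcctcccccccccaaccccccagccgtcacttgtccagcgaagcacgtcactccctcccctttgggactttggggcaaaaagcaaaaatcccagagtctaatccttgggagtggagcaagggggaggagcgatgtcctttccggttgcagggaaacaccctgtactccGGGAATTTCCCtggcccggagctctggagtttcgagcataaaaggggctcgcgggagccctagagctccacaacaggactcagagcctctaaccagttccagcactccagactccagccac

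Among the interferon-stimulated genes, 17 had a promoter in the reference table, and 9 of them (52.9%) held GAAANNGAAA, against 3.1% of 12790 tested genes with a promoter. GGGANNTTCC was in 4 of 18 promoters of IL-17-induced genes (22.2%) and in 1.49% of all. A match describes letters in this window and is not a measured binding site.

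The transcripts of the ligand Il17a and of its receptors Il17ra and Il17rc were also lower. Il17a itself (chr1:20730905-20734496) was scarce, at 159, 117 and 186 raw counts in Vehicle and 52, 44 and 34 in antibody libraries, a log2 fold change of -2.76 ± 0.68 (edgeR adjusted p = 0.00259). Il17ra was at 264, 278 and 249 CPM in Vehicle and 87.0, 83.1 and 91.8 CPM in antibody libraries (log2 fold change -1.60 ± 0.09). Il17rc had a log2 fold change of -1.13 ± 0.17, which fell inside the 2-fold limit under library-size scaling (-0.78). Il17f, the related cytokine, had a value of -0.92 ± 0.85 and was not called. Of 27 genes for IL-17 ligands, receptors and adaptors, 11 were called lower and 1 higher, 44.4% called beside 35.5% of all genes. The adaptor genes Traf3ip2 (Act1) and Traf6 had values of -0.91 and -0.64 and were not called.

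Of 24 IL-17-induced target genes, 20 were called lower and none higher, with a median of -2.17, against 13.1% of all genes called lower. Summed, the list was at 38186 to 40753 CPM in Vehicle and 4103 to 4319 with antibody. It was at 6095 to 6266 CPM in WT and 8098 to 8400 with agonist. In Combo, which also received the antibody, it was at 12582 to 12977 CPM. Lcn2, an iron-binding antimicrobial protein, was at 3944, 3695 and 3961 CPM in Vehicle and 41.7, 42.7 and 33.1 CPM in antibody libraries (log2 fold change -6.63 ± 0.09). Saa3, an acute-phase protein, had a value of -5.92, the neutrophil chemoattractant Cxcl5 -5.99, and the monocyte chemoattractant Ccl2 -4.08. Il6 was at 566, 516 and 584 CPM in Vehicle and 167, 148 and 146 CPM with antibody. S100a8 and S100a9, with values of -6.53 and -6.20, are also neutrophil markers, and the neutrophil list fell with them. In Combo the neutrophil list was at 12554 to 12894 CPM. The part of neutrophil content in the fall of the other targets, Lcn2 among them, was not tested. Mmp3, Zc3h12a, Socs3 and Steap4 were not called, with values from -0.88 to 0.28.

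**Figure D3:**
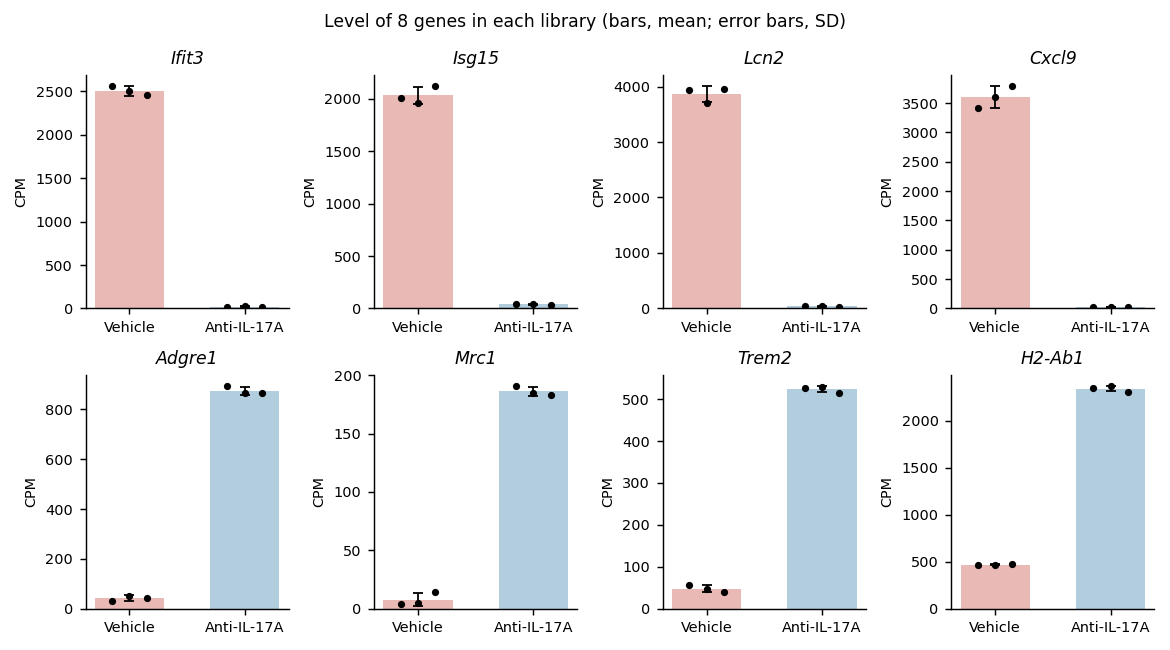
Level of 8 genes (y axis, CPM, separate scale for each gene) in Vehicle and anti-IL-17A libraries, with points for single libraries, bars for the mean and error bars for the SD of 3 libraries. Ifit3, Isg15, Lcn2 and Cxcl9 are lower with antibody and Adgre1, Mrc1, Trem2 and H2-Ab1 higher, with no overlap for any of the 8. These genes were picked for display, and 61.5% of all genes did not overlap.

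Inflammatory macrophage genes moved the same way, with 17 of 23 called lower, none higher and a median of -1.85. This list shares Tnf, Il1b, Il6, Ccl2, Cxcl2 and Ptgs2 with the IL-17-induced targets, so the lists are not independent. Cxcl9, which attracts T cells and is induced by interferon gamma, was at 3420, 3599 and 3798 CPM in Vehicle and 25.5, 21.4 and 24.5 CPM with antibody. Nos2, the inducible nitric oxide synthase, had a log2 fold change of -4.37 ± 0.37, Tnf -3.20 ± 0.10 and Il1b -2.35 ± 0.07. Of 21 genes for TNF receptors and NF-kB, 16 were called lower, with the inhibitor Nfkbia at -2.32 and Tnip1 at -2.80. Tnf, Tnfaip3, Nfkb1, Rela, Nfkbia and Traf2 of this list are also in the IL-17 lists. Chemoattractant receptors split, with 5 of 16 called lower and 5 higher, against 13.1% and 22.4% of all genes. The lower ones included Fpr1 (-6.36) and Cxcr2 (-5.64), both found on neutrophils, while Ccr2, the receptor of recruited monocytes, had a value of 2.80.

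Genes of alternative activation did not move together: 9 of 24 were called higher and 10 lower. Mrc1, the mannose receptor CD206, was at 4.23, 5.35 and 14.2 CPM in Vehicle and 191, 185 and 183 CPM with antibody. Retnla had a value of 2.28. Cd209a had no count in any Vehicle library. By contrast Arg1, which depletes arginine, had a value of -1.43, the chitinase-like Chil3 -2.75 and Cd274, encoding the checkpoint ligand PD-L1, -3.45. Among 15 immune checkpoint genes 6 were called in each direction, 80% called beside 35.5% of all genes. Lgals9 was at -3.71, Sirpa at 2.46 and the lymphocyte receptor Cd96 at 2.58.

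Lipid-associated macrophage genes were called higher for 14 of 20 and lower for 1, with a median of 1.62, beside a median of 1.72 for the 12 macrophage markers. Trem2, the lipid-sensing receptor, was at 56.2, 46.3 and 40.4 CPM in Vehicle and 527, 530 and 516 CPM with antibody. Lpl (lipoprotein lipase) had a log2 fold change of 3.54 ± 0.06, Lipa (lysosomal acid lipase) 3.49 ± 0.06 and Apoe 2.64 ± 0.03. Fabp4, a fatty acid carrier of adipocytes and macrophages, was the 1 called lower, at -1.87. Cd9 (-0.11) and Spp1 (0.86) were not called. Resident macrophage genes were called higher for 12 of 17 and lower for 2, with F13a1 at 5.05 ± 0.35 and Fcna at 3.90 ± 0.14. Summed, this list was at 1393 to 1541 CPM in Vehicle, 2441 to 2458 with antibody and 3328 to 3418 in WT. That rise over Vehicle was 1.67-fold, beside 4.56-fold for the summed macrophage markers.

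MHC class II genes were called higher for 9 of 11 and lower for none, with a median of 2.19. H2-Ab1 was at 470, 462 and 472 CPM in Vehicle and 2347, 2367 and 2311 CPM with antibody, and Ciita, the master regulator of the class II genes, had a value of 2.66 ± 0.22. Of 24 genes of DNA replication and mitosis, 20 were called higher, with a median of 1.79. Top2a, which untangles DNA, was at 5.19, 5.35 and 4.60 CPM in Vehicle and 40.0, 37.2 and 48.2 CPM with antibody.

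Metabolic lists had called shares of 25% to 41.2%, beside 35.5% of all genes. Of 19 fatty acid oxidation genes, 7 were called higher and none lower, with Acadm at 1.71 and Hadh at 1.62. Fatty acid synthesis had 2 of 16 called in each direction, and its median changed sign with library-size scaling (-0.21 to 0.13). Cholesterol genes had 5 of 17 called higher and 2 lower, and glycolysis 1 of 18 higher and 5 lower, among the latter the glucose transporter Slc2a1 (-2.50) and the lactate exporter Slc16a3 (-2.96). Of 14 hypoxia-induced genes, 9 were called lower and 1 higher (71.4% called), with Adm at -3.02. Immediate early genes (7 of 20 lower, 1 higher), heat shock and unfolded protein genes (6 of 16 lower), Ras-ERK genes (4 of 18 lower, 1 higher) and Th17 induction genes (5 of 18 lower, 1 higher) had medians from -0.80 to -0.53. Their called shares, 27.8% to 40%, were near the 35.5% of all genes. Of 44 genes the study names for ATMs, 21 were called lower and 6 higher, a list chosen on these samples and so not independent evidence.

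**Figure D4:**
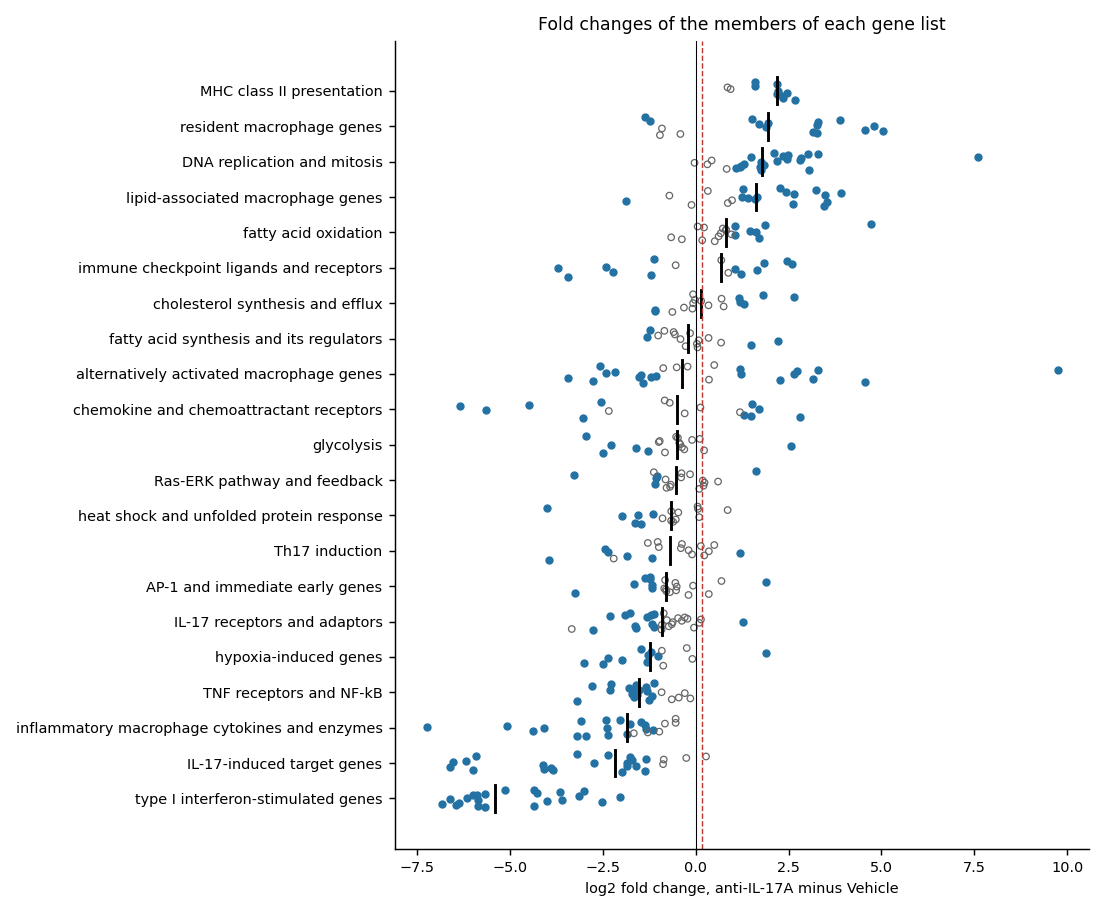
Log2 fold change, anti-IL-17A minus Vehicle (x axis), of each member of 21 gene lists (rows). Filled points were called, open points were not, black bars are list medians and the dashed line is the median of all genes, 0.17. The list medians run from -5.41 for interferon-stimulated genes to 2.19 for MHC class II.

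The largest changes among the named genes were in transcripts of sperm, seminal vesicle and epithelium. The 10 largest increases were Prm2, Akap4, Svs5, Fhl4, Smcp, Svs2, Oaz3, Tuba3a, Atp8b3 and Cuzd1, all at 0 in every Vehicle library. Prm2, a protamine that packs sperm DNA, was at 317, 302 and 290 CPM with antibody, at least 2337-fold above the limit set by 3 counts per Vehicle library. Svs5, a seminal vesicle secretory protein, was at least 1284-fold higher. All 10 spermatid markers and 8 of 9 seminal vesicle and prostate markers were called higher. The latter summed to 0 to 1.01 CPM in Vehicle and 414 to 458 with antibody. Levels were 4.49 to 6.07 CPM in Combo, 806 to 858 in WT and 2276 to 2371 with agonist. Spermatid markers summed to 24.1 to 31.8 CPM in Vehicle and 45.3 to 49.3 in Combo, against 152 to 1073 in the other groups. Epididymis markers were at 9.85 to 25.3 CPM in Vehicle and Combo, 205 to 234 with antibody or agonist and 23018 to 23201 in WT. Vehicle and Combo are the groups with high Xist, and sex and treatment cannot be told apart here. The 10 largest decreases were Sftpd, Fcgbp, Ceacam12, Gp2, Duoxa2, Serpinb11, Clca1, Duox2, Lipk and Reg3g, several of them secreted or expressed by mucosal epithelium. Reg3g, an antibacterial lectin of epithelium, was at 1044, 950 and 983 CPM in Vehicle and 0.380, 0.254 and 0.193 with antibody. Sftpd, surfactant protein D, was at least 969-fold lower. Chosen after their values were seen, the epithelial keratin Krt15 (-8.43) and the mucin Muc5b (-7.98) were lower too, and Slc37a2 (5.11) and Igf1 (3.88) higher.

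Antibody and agonist libraries were compared directly to ask where the agents differed. In this contrast Vehicle cancels and both groups have low Xist, and 549 genes were called higher with antibody (3.22%) and 833 lower (4.88%), 8.1% in all. This balance turned under library-size scaling, to 771 higher and 608 lower. Marker lists differed in the same contrast, and their part in it was not tested. Macrophage markers summed to 11768 to 12264 CPM with agonist and 16862 to 17057 with antibody, and fibroblast markers to 51165 to 52378 and 24212 to 24794. All 8 mesothelium markers and 8 of 9 seminal vesicle and prostate markers were lower with antibody, and 4 of 9 neutrophil markers were higher. Of IL-17-induced targets, 9 of 24 were lower with antibody and 1 higher. Cxcl1 was at a mean of 1580 CPM with agonist and at 421, 451 and 462 CPM with antibody (log2 difference -1.83), and Ccl2 differed by -1.87. Il17ra differed by -1.51 and Il17a by 1.98. Of 24 replication genes, 9 were higher with antibody and none lower, and Ciita differed by 2.53. Interferon-stimulated genes were split, with 2 of 22 higher and 5 lower, and no lipid-associated gene was called.

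The same treatment contrast in BM and the difference between tissues were used to ask which effects differed between ATMs and marrow. In BM 16.1% of genes were called, 7.65% higher and 8.46% lower, and the interaction of tissue and treatment was called for 29.3% of 13076 genes in both tables, 16.4% with the higher and 12.9% with the lower value in ATMs. Interferon-stimulated genes were lower in BM for 22 of 22, with a median of -4.74, and the interaction was called for 7 of 22. MHC class II genes had a BM median of -0.64, and all 11 had a called interaction. Lipid-associated genes had a BM median of 0.07 and an interaction called for 15 of 20, and replication genes a BM median of 0.23 and an interaction called for 17 of 24. Macrophage markers, too, had an interaction called for 11 of 12. Of 20 IL-17-induced targets in both tables, 8 were called lower in BM and 4 higher, and the interaction was called for 16. Lcn2 had a log2 fold change of -0.90 in BM. Inflammatory macrophage genes were lower in BM for 15 of 22 and higher for 3, with a median of -1.98. All 9 neutrophil markers had a called interaction, and none was called lower in BM. The spread of each gene is pooled over both tissues in this fit, although BM libraries were closer to each other than ATM libraries.

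**Figure D5:**
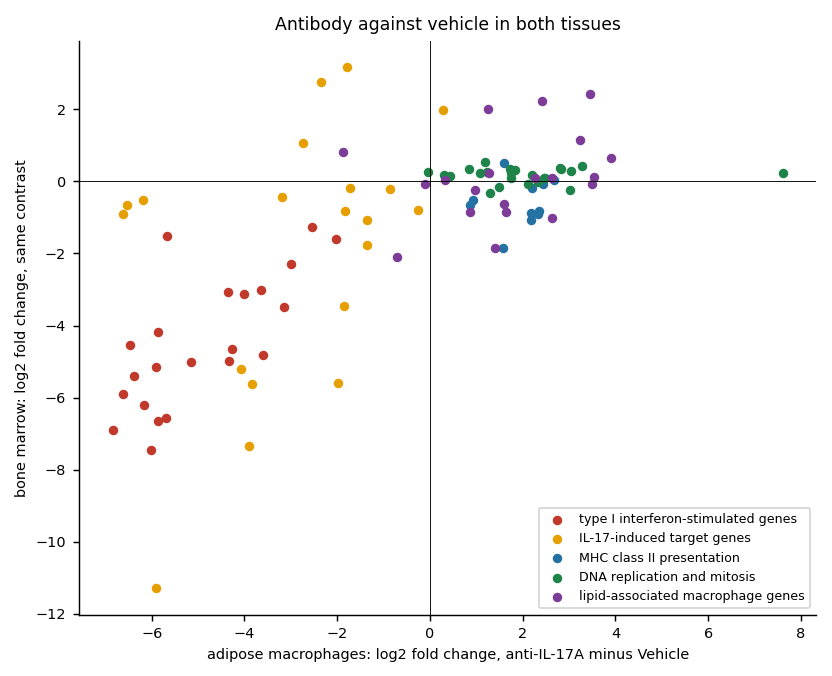
Log2 fold change, anti-IL-17A minus Vehicle, in adipose macrophages (x axis) and bone marrow (y axis) for the members of 5 gene lists measured in both, 1 point per gene. Interferon-stimulated genes lie low on both axes, with medians of -5.41 and -4.74, and MHC class II genes have medians of 2.19 and -0.64.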

How the data were processed

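RNA-seq counts of 15 ATM libraries and 15 BM libraries were used, 3 per group. Per the submitters' notes the authors aligned reads with STAR 2.7.2a to mm10 and counted them with featureCounts 2.0.1 on GENCODE annotation, unstranded, with mapping quality of at least 10; the deposited values are raw counts per gene symbol. Reads over several genes were counted for each, so overlapping genes and antisense partners cannot be told apart. ATM depth was 24876074 to 45300263 counts, Vehicle 27229278 to 30195059 and antibody 39818065 to 45300263; no gene had a total below 54.

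edgeR 4.0.16 (R 4.3.3) was run with TMM scaling and robust quasi-likelihood tests (the low-count filter, filterByExpr, dropped 0 genes), with 1 fit of 15 ATM libraries and 1 of 30 for the tissue interaction, Benjamini-Hochberg adjusted. Values are CPM; SE is from the fit. DESeq2 1.42.0 and limma 3.58.1 gave alternatives. Scripts were tested on simulated data. Floors of 3 counts cover counting error only. The same replicate numbers did not pair Vehicle with antibody libraries.

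Named genes were the 10 largest called changes each way with a mean of at least 50 counts and no overlap, up to 4 called genes of each list (2 of lowest p where none was called), the genes the study names, the IL-17 target and receptors, and markers. The comparison and lists were chosen with earlier results of these data known.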

Additional observations from a re-analysis of the deposited data

Results flagged for a closer look

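Of 107 named genes measured in both tissues, 3 were called in opposite directions in ATMs and BM, with the tissue difference itself called by the edgeR interaction test. Of all 13076 genes measured in both tissues, 213 were called in opposite directions, counted without asking for a called interaction. The count of 3 is not read as a result about the named genes. Il1b had a log2 fold change of -2.35 in ATMs and 2.76 in BM, a difference of -5.14. Nt5e, which makes adenosine from AMP, had -1.99 and 1.68, a difference of -3.70. Stab1, a scavenger receptor, had 3.29 and -2.27, a difference of 5.54. Groups of 3 are too small for a test of single outlying libraries.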

How the results depend on the processing

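The count of genes called between antibody and Vehicle (6051) ranged from 5795 to 6023 when each library was left out in turn, that between antibody and agonist (1382) from 1215 to 1365, and that of the tissue difference (3835) from 3719 to 3969. Requiring at least 10 counts in every library gave 3724 genes for antibody against Vehicle, where fewer genes were tested (12064) and 51.2% of calls were higher, against 63.1%. Without the fold limit the 3 counts were 9914, 5084 and 7369. The replicate block gave 5955, 1321 and 3822, and same-numbered deviations of Vehicle and antibody libraries correlated at -0.00522 to -0.00109, so the numbers are only names. DESeq2 called 6323, 1582 and 3896, and on simulated ATM counts it made more false calls than edgeR and more than its threshold allows. Library-size scaling, and limma for the tissue difference, were chosen after seeing the data. Under library-size scaling Nr1h3 changed sign (0.19), as did the median of fatty acid synthesis (0.13); for the agonist comparison the higher share of calls moved from 39.7% to 55.9%. Cxcr4, not called, ranged from -0.00499 (without Vehicle replicate 1) to 0.217 over the left-out libraries. No alternative addresses whether that spread is between mice or separates sex from treatment.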
